A study of Mus musculus with 3 samples.

Results

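A small group of lysozyme-expressing phagocytes in the Peyer's patches of untreated mice carried many transcripts of Cxcl10, the interferon-induced chemokine that draws T cells through the receptor Cxcr3. These Cxcl10-high cells were 58 of the 2017 Control cells that passed a gate for resting lysozyme-positive or C1q-positive phagocytes. The Control library held 5344 cell barcodes and the 3 libraries together 15526. The gate kept cells with at least 500 detected genes, at most 10% of UMIs (unique transcript molecules) from mitochondrially encoded genes, and at least 80 UMIs per 10000 from Lyz1, C1qa, C1qb and C1qc summed. It required fewer than 4 UMIs of Ccr7, fewer than 4 of Mki67, Top2a, Birc5 and Ube2c summed, and fewer than 3 of Cd79a. Within the gate, cells with at least 3 Cxcl10 UMIs are called Cxcl10-high, and the 1802 cells with 0 Cxcl10 UMIs, called Cxcl10-0 cells, are what they are set against. The choice rests on measured values of the same cells, so every difference between the 2 sets of Control cells is a description, and the 11 genes of the gate are left out of all counts.

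The study sorted CD11c-positive phagocytes (cDC1, cDC2, LysoDC and macrophages) from Peyer's patches of female C57BL/6Rj mice and sequenced them with droplet single-cell 3′ RNA sequencing. The CpG library came from 12 pooled mice with 85 patches, collected 9 h after an intraperitoneal injection of 125 µg of CpG, a DNA ligand of the receptor TLR9. The R848 library came from 12 pooled mice with 90 patches, collected 9 h after 10 µg of R848, a small-molecule ligand of TLR7, by the same route. The Control library came from 12 pooled mice with 88 patches, labelled as having had no treatment. Each group was 1 library of pooled mice, so there is no replicate, no test was run, and differences between libraries cannot be told apart from differences between pools. The sources used here state no age for the mice.

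Type I interferons bind a receptor on nearly all cells and switch on a set of interferon-stimulated genes that share a promoter element. Some of these genes, among them Ifit1 and Rsad2, block steps in viral replication, while Isg15 is a ubiquitin-like protein that is attached to other proteins and Usp18 both removes it and dampens the receptor. Interferon gamma binds another receptor and induces an overlapping set that includes Cxcl9, Cxcl10 and the immunity-related GTPases. In Peyer's patches, LysoDC are short-lived phagocytes that come from monocytes and, with the macrophages that share their lysozyme, sample material from the gut lumen.

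The promoter sequences of Cxcl10, the gene that defined the cells, and of Isg15, Ifit1 and Rsad2, which were among the genes highest in them, show the shared element. The 250 bases before each start site are from RefSeq (GRCm38.p6), written on the strand of the gene: chr5:92348890-92349139 (minus) for Cxcl10, chr4:156200819-156201068 (minus) for Isg15, chr19:34640639-34640888 (plus) for Ifit1 and chr12:26456453-26456702 (minus) for Rsad2. Capitals mark 2 motifs, each searched on both strands. The first, the core of the interferon-stimulated response element, is GAAA, any 2 bases and GAAA, and the second, a form of the NF-kB element, is GGGA, any 2 bases and TTCC.
Cxcl10: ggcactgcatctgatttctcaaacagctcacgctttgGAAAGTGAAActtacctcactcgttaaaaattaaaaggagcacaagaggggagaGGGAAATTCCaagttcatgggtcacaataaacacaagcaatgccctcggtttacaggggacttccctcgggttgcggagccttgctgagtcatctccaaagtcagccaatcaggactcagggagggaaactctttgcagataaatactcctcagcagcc
Isg15: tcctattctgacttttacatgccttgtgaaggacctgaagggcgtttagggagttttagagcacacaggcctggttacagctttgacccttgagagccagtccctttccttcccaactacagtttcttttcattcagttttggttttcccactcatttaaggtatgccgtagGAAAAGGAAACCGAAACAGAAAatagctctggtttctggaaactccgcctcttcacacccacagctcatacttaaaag
Ifit1: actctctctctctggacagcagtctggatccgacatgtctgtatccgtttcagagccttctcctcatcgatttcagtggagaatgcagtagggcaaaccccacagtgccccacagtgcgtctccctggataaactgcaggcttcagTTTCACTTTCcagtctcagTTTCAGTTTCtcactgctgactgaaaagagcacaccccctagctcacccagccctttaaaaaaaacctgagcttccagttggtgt
Rsad2: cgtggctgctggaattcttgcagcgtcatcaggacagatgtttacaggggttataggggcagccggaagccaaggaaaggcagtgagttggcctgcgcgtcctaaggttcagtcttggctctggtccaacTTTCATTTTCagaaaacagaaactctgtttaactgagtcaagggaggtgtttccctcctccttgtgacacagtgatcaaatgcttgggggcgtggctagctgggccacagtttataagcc
Cxcl10 had 1 match to each motif, 213 and 159 bases before the start. Isg15 had 3 overlapping matches to the first motif between 78 and 66 bases before the start, Ifit1 had 2 and Rsad2 had 1, and none of the 3 held the second motif in this window. The interferon-stimulated response element was found in 2.98% of 32851 mouse promoter windows of the same length. It was found in 85 of 1851 genes measured in the comparison of Cxcl10-high with Cxcl10-0 cells and in 21 of 45 matched genes of the interferon-stimulated list. Of the 14 named genes with the highest ratios, 10 were matched and 5 of these held it. The NF-kB element was found in 1.21% of all windows and in 3 of the 45. A match describes letters in a window and shows no binding.

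The CpG, R848 and Control libraries held 43767864, 46556726 and 43537067 UMIs, and their median cells 7501, 8223 and 7494. The libraries shared 33 to 42 cell barcodes pairwise, and 2 of the 58 Cxcl10-high cells had a barcode that also occurs in another library. The 58 cells held 614862 UMIs, with 2642 to 18822 per cell and a median of 10470, against a median of 10075 in the Cxcl10-0 cells, which held 18304399 in all. Their median mitochondrial share was 3.15%, against 3.14%, and their median of Lyz1 and C1q transcripts was 381 per 10000 UMIs, against 369. Depth and these quality measures were thus close between the 2 sets. Every interval below is a 95% interval and covers counting error only.

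Cxcl10-high cells made up 43.8% of gated CpG cells (535 of 1221, exact Clopper-Pearson interval 41.0 to 46.7), 21.8% of gated R848 cells (375 of 1717, 19.9 to 23.9) and 2.88% of gated Control cells (58 of 2017, 2.19 to 3.70). Gated cells were deeper in the treated libraries, with median UMIs of 13138 in CpG and 12322 in R848, against 10130 in Control. With each cell thinned to 3000 UMIs, the share with any Cxcl10 UMI was 44.7% in CpG, 24.9% in R848 and 5.52% in Control, where 34, 40 and 98 shallower cells were left out. The order of the libraries was the same on both measures. In Control cells of the B lineage, taken as those with at least 3 Cd79a UMIs, 1 of 82 reached 3 Cxcl10 UMIs (1.22%, 0.0309 to 6.61) and 3.66% had any, at a median depth of 6697.5 UMIs. In gated Control cells 10.7% had at least 1 Cxcl10 UMI.

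Cxcl10 was unevenly spread over the Cxcl10-high cells: the lowest had 3 UMIs, the median 7 and the highest 95. The next cells below the highest had 84 and 81 UMIs, and these 3 cells together held 29.9% of the 871 Cxcl10 UMIs of the group. The 58 cells, 2.88% of the gated Control cells, held 81.9% of all Cxcl10 UMIs in the Control gate. The summed Cxcl10 level of the Control Cxcl10-high cells was 1417 CPM (UMI counts scaled to a common total per cell set), beside 1786 CPM in CpG Cxcl10-high and 1851 CPM in R848 Cxcl10-high cells. These levels follow from the limit that chose the cells, whose median depths were 10470, 13338 and 12605 UMIs, so the libraries are not compared on them.

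The Cxcl10-high cells differed from the Cxcl10-0 cells mainly in interferon-stimulated genes. UMIs were summed over each cell set, and log2 ratios were taken with 5 CPM added to both sets. Of 2375 genes with at least 50 CPM in either set, 36 were at least 2-fold higher in the Cxcl10-high cells, which is 1.52% of genes, and 3 were at least 2-fold lower, which is 0.126%. The median over all measured genes was 0.00. Of the 62 genes listed as interferon-stimulated, 60 were in the matrix and 35 were measured; 20 of the 35 were at least 2-fold higher, 0 were lower, and their median log2 ratio was 1.02. A gene that passes the minimum through the Cxcl10-high cells alone must differ, so the whole list was also counted with no minimum. Then 30 of 60 were at least 2-fold higher and 0 were lower, and the median was 0.99. Over all 14787 genes with a UMI in either set, 90 were at least 2-fold higher and 111 lower, with a median of -0.03. Among the 18 members with at least 50 CPM in the Cxcl10-0 cells themselves, 9 were at least 2-fold higher. Of the 17 that reached 50 CPM in the Cxcl10-high cells alone, 11 were. The share of all genes at these levels was not counted.

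The IFIT genes, whose proteins bind viral RNA and sit side by side on chromosome 19, had the highest ratios of CPM values among the 17 named genes. On the log2 scale with 5 CPM added, Rsad2 at 3.74 lay level with Ifit1 and above Ifit2. Without the 3 cells highest in Cxcl10 UMIs the log2 ratio of Ifit3 was 2.70. That of Ifit2 was then 3.37, and those of Ifit1 and Rsad2 were 3.07. Ifit3 (ENSMUSG00000074896, mm10 chromosome 19, 34583531 to 34588731) stood at 104 CPM in Cxcl10-high cells (64 UMIs, exact Poisson interval 80.2 to 133), against 2.46 CPM in Cxcl10-0 cells (1.79 to 3.29), a log2 ratio of 3.87. Ifit1 (chromosome 19, 34640871 to 34650009) stood at 174 CPM (143 to 210), against 8.41 CPM (7.14 to 9.85), a log2 ratio of 3.74. Ifit2 (chromosome 19, 34550694 to 34576419) stood at 122 CPM (95.9 to 153), against 5.41 CPM (4.40 to 6.58), a log2 ratio of 3.61. Each of the 3 was thus more than 20-fold higher by the ratio of CPM values, with intervals of the levels that do not touch. The intervals of the ratios were 28.5 to 63.4 for Ifit3, 16.0 to 26.6 for Ifit1 and 16.5 to 30.8 for Ifit2. All 3 reached 50 CPM in the Cxcl10-high cells alone and so had to be higher there. The 3 genes were carried by part of the group only: 29 of 58 Cxcl10-high cells had an Ifit1 UMI, 22 an Ifit2 UMI and 20 an Ifit3 UMI, against 7.38%, 4.99% and 2.28% of Cxcl10-0 cells.

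Rsad2 (viperin, an antiviral enzyme that makes a chain-terminating nucleotide; chromosome 12, 26442746 to 26456452) had 0 UMIs in the lowest, 1 in the median and 35 in the highest Cxcl10-high cell, against 0, 0 and 4 in the Cxcl10-0 cells. Its summed level was 254 CPM, against 14.4 CPM, a ratio of 17.6 (exact interval 14.3 to 21.5). Rsad2 also reached 50 CPM in the Cxcl10-high cells alone, so it had to be higher there. Isg15 (chromosome 4, 156199424 to 156200818) had 0, 3 and 25 UMIs in the lowest, median and highest Cxcl10-high cell, against 0, 0 and 30 in the Cxcl10-0 cells. At 403 CPM, against 65.4 CPM, its ratio was 6.17 (5.36 to 7.08). The ranges of both genes overlapped between the cell sets, since some Cxcl10-high cells had none and some Cxcl10-0 cells had many. Isg15 was found in 72.4% of Cxcl10-high cells and in 37.2% of Cxcl10-0 cells. With cells thinned to 3000 UMIs these shares were 61.4% (47.6 to 74.0) and 14.4% (12.8 to 16.2). In B-lineage cells, unthinned and at a lower median depth of 6697.5 UMIs, Isg15 was found in 17.1% and Rsad2 in 1.22%. Free RNA and transcripts of the B-lineage cells themselves cannot be told apart in these 2 values.

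Single genes of the ISG15 system, of the 2′-5′ oligoadenylate synthetase-like genes and of the PYHIN family were also among those at least 2-fold higher. Of 6 genes of ISG15 conjugation and removal 3 were measured, of which Isg15 and Usp18 passed 2-fold. Ube2l6, the conjugating enzyme, had a log2 ratio of 0.73. Over all 6, with no minimum, 3 were at least 2-fold higher, where 90 of all 14787 genes were. Usp18, the ISG15 protease (chromosome 6), stood at 211 CPM in Cxcl10-high cells, against 54.6 CPM in Cxcl10-0 cells, a log2 ratio of 1.86. Oasl1, which in mouse represses translation of Irf7, stood at 107 CPM, against 14.9 CPM (2.50), and its neighbour Oasl2 at 92.7 CPM, against 21.8 CPM (1.87). Both lie on chromosome 5. Ifi204, a PYHIN protein that senses DNA (chromosome 1, 173747293 to 173766943), stood at 159 CPM, against 38.5 CPM (1.92). Pydc4, from the same chromosome 1 cluster and listed as Ifi213 in GENCODE M21, stood at 68.3 CPM, against 18.4 CPM (1.65). These 5 genes were lower in ratio than the IFIT genes, and each was seen in 26 to 37 of the 58 cells. Oasl1, Oasl2, Ifi204 and Pydc4 reached 50 CPM in the Cxcl10-high cells alone and so had to be higher there. The genes of these families have close relatives, and reads shared between relatives may have been left out of the counts.

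**Figure D1:**
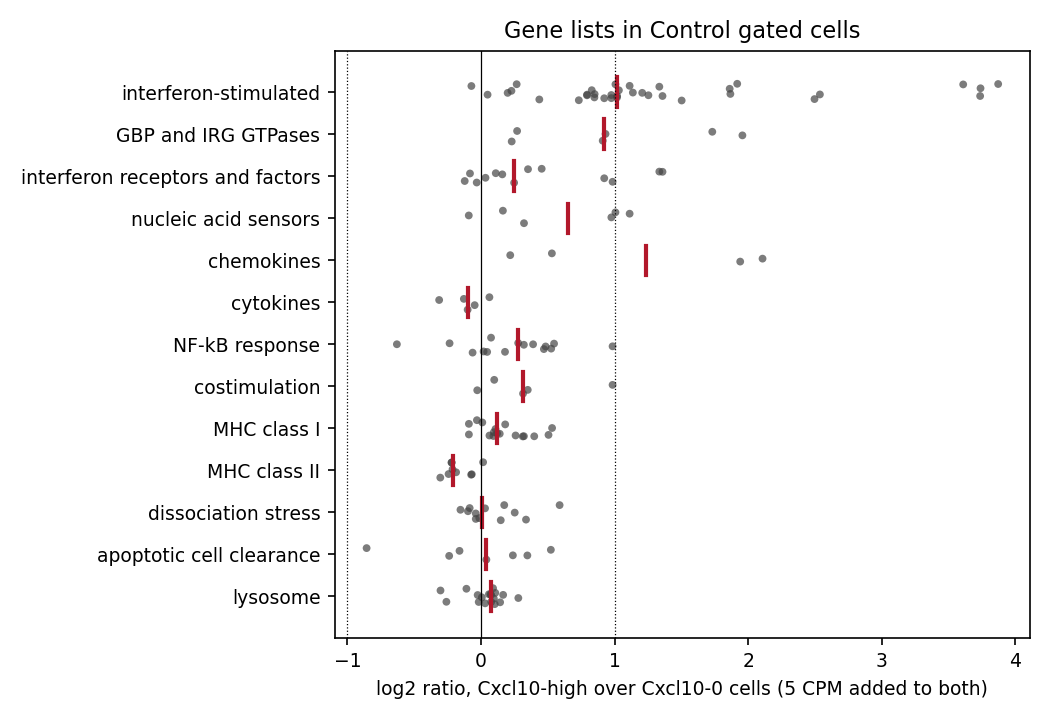
Each point is a gene of a list with at least 50 CPM in the Cxcl10-high or the Cxcl10-0 cells of the Control library; the x axis is the log2 ratio of Cxcl10-high over Cxcl10-0 cells with 5 CPM added to both, red bars are list medians, and dotted lines mark a 2-fold difference. The interferon-stimulated list has its median at 1.02 and reaches 3.87, while the NF-kB, MHC and stress lists lie within 2-fold.

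Some signalling genes of the interferon pathway were higher in the Cxcl10-high cells, and its receptors were close to even. Irf7, the transcription factor that amplifies type I interferon, stood at 202 CPM in Cxcl10-high cells, against 75.6 CPM in Cxcl10-0 cells (ratio 2.67, 2.20 to 3.21). Stat2 stood at 60.2 CPM, against 29.4 CPM, and Irf1, a transcription factor that interferon gamma induces, at 84.6 CPM, against 40.3 CPM, both just under the 2-fold limit with 5 CPM added. The receptor chains were near even, with Ifnar1 at 92.7 CPM, against 85.5 CPM, Ifnar2 at 176 CPM, against 171 CPM, and Ifngr1 at 481 CPM, against 510 CPM. Of 13 measured receptors and factors, 2 were at least 2-fold higher and 0 lower, with a median of 0.25. Among nucleic acid sensors, 2 of 6 measured were at least 2-fold higher: Zbp1, which binds Z-form nucleic acid, at 155 CPM, against 68.8 CPM, and Ddx58 (RIG-I) at 55.3 CPM, against 25.02 CPM. Ddx58 was measured through the Cxcl10-high cells alone. Of the 3 sensors with at least 50 CPM in the Cxcl10-0 cells 1 passed 2-fold. Of all 21, with no minimum, 4 were at least 2-fold higher, with a median of 0.15, where 90 of all 14787 genes were. Sting, listed as Tmem173, stood at 159 CPM, against 127 CPM.

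The GTPases that interferon gamma is best known to induce were higher in a few members. Ifi47 stood at 99.2 CPM in Cxcl10-high cells, against 21.9 CPM in Cxcl10-0 cells (log2 ratio 1.96), and Irgm1, which acts on vacuoles that hold microbes, at 53.7 CPM, against 12.7 CPM (1.73); both lie on chromosome 11. These 2 were the ones past 2-fold among 6 measured members, but both were measured through the Cxcl10-high cells alone and so had to differ. Of the 4 members with at least 50 CPM in the Cxcl10-0 cells 0 passed 2-fold, with a median of 0.59. Of all 18 gene IDs, with no minimum, 6 were at least 2-fold higher, with a median of 0.69, where 90 of all 14787 genes were. Gbp3 stood at 141 CPM, against 71.8 CPM (0.93), and Gbp2 at 106 CPM, against 86.8 CPM (0.27). Cxcl9 (chromosome 5, 92321347 to 92328079), the neighbour of Cxcl10 and a ligand of the same receptor, stood at 104 CPM, against 20.3 CPM (ratio 5.12, 3.87 to 6.69). It was found in 22 of the 58 Cxcl10-high cells, with a highest count of 11 UMIs, and in 9.93% of Cxcl10-0 cells, with a highest count of 21. Cd69, an early activation marker that holds cells in tissue (chromosome 6), stood at 71.6 CPM, against 15.4 CPM (log2 ratio 1.91). Cxcl9 and Cd69 also reached 50 CPM in the Cxcl10-high cells alone and so had to be higher there.

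The NF-kB, cytokine, MHC and stress lists had no measured member 2-fold higher or lower. Of 15 measured NF-kB response genes 0 were at least 2-fold higher, with a median of 0.28 and Cd40 highest at 82.9 CPM in Cxcl10-high cells, against 39.4 CPM in Cxcl10-0 cells. Its log2 ratio of 0.98 lay next to the limit, and this count became 1 under several settings. Nfkbia, the inhibitor that NF-kB induces, stood at 610 CPM, against 579 CPM (ratio 1.05, 0.948 to 1.17). Il1b stood at 408 CPM, against 447 CPM, and 0 of 5 measured cytokine genes passed 2-fold in either direction. MHC class I presentation had 0 of 17 measured members past 2-fold (median 0.12), and MHC class II presentation 0 of 9 (median -0.21), with H2-Ab1 at 7502 CPM, against 9268 CPM. The 12 measured genes of the response to tissue digestion, such as Fos and Hspa8, had a median of 0.01 and 0 members past 2-fold.

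Other chemokines differed little or in few cells. Ccl17, a ligand of Ccr4, stood at 381 CPM in Cxcl10-high cells, against 95.5 CPM in Cxcl10-0 cells, but 1 cell held 149 of its 234 UMIs, and it was found in 27.6% of Cxcl10-high and 27.7% of Cxcl10-0 cells. Clec4e (Mincle, a receptor for mycobacterial glycolipid) was alike: 1 cell held 64 of its 131 UMIs, and it was found in 24.1% of both sets. These 2 genes are among the 36, and their ratios describe single cells. Ccl12, a monocyte attractant, was under the minimum at 42.3 CPM, against 5.03 CPM, with its 26 UMIs spread over 10 cells. Ccl5 had 13 UMIs, of which 1 cell held 10. Ccl3 and Ccl4 stood at 19.5 and 16.3 CPM, against 9.51 and 9.62 CPM.

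The genes lower in the Cxcl10-high cells were 3. Cd9, a tetraspanin, stood at 32.5 CPM in Cxcl10-high cells (20 UMIs, 19.9 to 50.2), against 109 CPM in Cxcl10-0 cells, a log2 ratio of -1.60. Il1r2, the decoy receptor of interleukin 1, stood at 45.5 CPM, against 113 CPM (-1.22), and Plet1, a surface protein used here as a cDC2 marker, at 22.8 CPM, against 56.5 CPM (-1.15). Cd9 and Il1r2 were each found in 27.6% of Cxcl10-high cells, against 42.3% and 37.7% of Cxcl10-0 cells. The 3 values rest on 14 to 28 UMIs in the Cxcl10-high cells.

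The Cxcl10-high cells varied widely in the interferon-stimulated genes themselves. The sum of Isg15, Ifit1, Ifit2, Ifit3 and Rsad2, 5 genes chosen after their values were seen, was 0 UMIs in the lowest, 5.5 in the median and 93 in the highest Cxcl10-high cell, against 0, 0 and 36 in the Cxcl10-0 cells. It was at least 10 in 19 of 58 Cxcl10-high cells (32.8%, 21.0 to 46.3), against 7 of 1802 Cxcl10-0 cells (0.388%, 0.156 to 0.799). It was 0 in 9 of 58, against 919 of 1802. The 9 cells without any of the 5 transcripts had 3 to 10 Cxcl10 UMIs and 7493 to 15500 UMIs in all, so they were not the shallow ones. The name interferon-active thus describes the summed profile and not every cell chosen by Cxcl10.

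**Figure D2:**
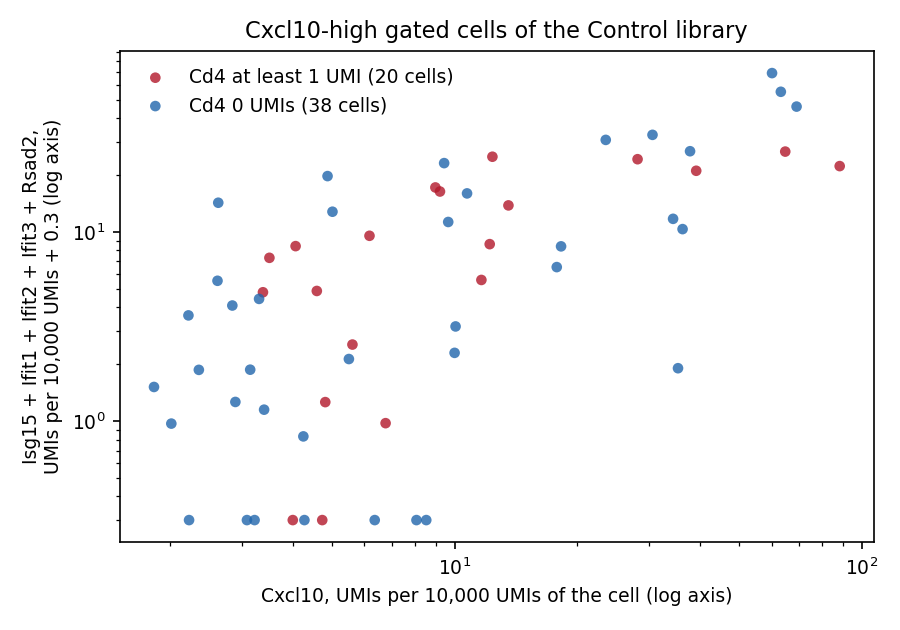
Each point is 1 of the 58 Cxcl10-high Control cells; the x axis is Cxcl10 and the y axis the sum of Isg15, Ifit1, Ifit2, Ifit3 and Rsad2 plus 0.3, both as UMIs per 10000 UMIs of the cell on log axes, and colour marks cells with and without a Cd4 UMI. The 9 cells at the bottom had none of the 5 transcripts, and the 3 cells with the most of them are at the upper right.

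Across the 58 cells the 5-gene sum and Cxcl10, both per 10000 UMIs, had a Spearman rho of 0.66 and a Pearson r of 0.68 on the log2 scale, given as a description of cells that share 1 library. Without the 3 cells highest in Cxcl10 per 10000 UMIs, which had 40, 59 and 95 Cxcl10 UMIs, they were 0.61 and 0.64. The cells with 81 and 84 Cxcl10 UMIs stayed in that calculation. In both calculations the 5-gene sum and Cxcl10 were divided by the same cell total, 2642 to 18822 UMIs over the 58 cells. A shared divisor can raise a correlation by itself, and its part was not tested. Of the 23 cells with at least 10 Cxcl10 UMIs, 13 had a 5-gene sum of at least 10, and so did 6 of the 35 cells with 3 to 9. The 3 cells highest in Cxcl10 by UMI count, with 95, 84 and 81 UMIs, had 5-gene sums of 63, 73 and 93 UMIs. They held 60.9% of the Ifit3, 42.1% of the Ifit1, 41.7% of the Rsad2 and 25.8% of the Isg15 UMIs of the group. Without them 24 in place of 36 genes were at least 2-fold higher, and 14 in place of 20 of the interferon-stimulated list. Ifit3 then stood at 43.53 CPM, Ifit1 at 108 CPM, Rsad2 at 158 CPM and Isg15 at 320 CPM, still above the Cxcl10-0 levels of 2.46, 8.41, 14.4 and 65.4 CPM.

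The limit of 3 Cxcl10 UMIs cuts a range of counts that has no gap. Between cells just inside and just outside it, the intervals overlapped for Isg15, Ifit2 and Ifit3 but not for Ifit1 and Rsad2. The 14 cells with exactly 3 Cxcl10 UMIs had 180 CPM of Isg15 (118 to 264), 69.2 CPM of Ifit1 (33.2 to 127) and 132 CPM of Rsad2 (79.2 to 205). The 35 cells with 2, just outside, had 161 CPM of Isg15 (122 to 207), 13.6 CPM of Ifit1 (4.42 to 31.8) and 38.1 CPM of Rsad2 (20.9 to 64.0). Of the 14 cells, 1 held 7 of their 10 Ifit1 UMIs and another held 8 of their 19 Rsad2 UMIs. The separation of Ifit1 and Rsad2 thus leans on single cells, which the intervals do not cover. Over all gated Control cells, Isg15 stood at 65.4 CPM at 0 Cxcl10 UMIs, 92.7 CPM at 1, 161 CPM at 2, 214 CPM at 3 to 7 and 617 CPM at 8 or more. Ifit1 stood at 8.41, 12.2, 13.6, 46.0 and 319 CPM over the same classes of 1802, 122, 35, 31 and 27 cells. The levels of Isg15 and Ifit1 were highest in the class with the most Cxcl10, while Nfkbia stood between 558 and 656 CPM in all 5 classes. Irg1 and Il1b were less even than Nfkbia. Irg1 was also highest in the class with the most Cxcl10, at 574, 636, 548, 720 and 884 CPM over the 5 classes. Il1b stood at 447, 445, 166, 506 and 298 CPM.

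The Cxcl10-high cells included cells with and without Cd4, and with much and little Il22ra2. Cd4, a marker of the macrophages, was found in 20 of 58 Cxcl10-high cells (34.5%, 22.5 to 48.1), against 26.4% of Cxcl10-0 cells (24.3 to 28.5). Il22ra2, the secreted decoy receptor of interleukin 22 and a LysoDC marker, reached 20 UMIs in 32 of 58 (55.2%, 41.5 to 68.3), against 60.5% (58.2 to 62.8). These intervals overlap and cover counting error only, and a difference in the share of cells with either marker was not tested. Over 7 listed macrophage genes the sums were 34250 CPM in Cxcl10-high and 30622 CPM in Cxcl10-0 cells, with 3 of 4 measured members higher. Over 6 listed LysoDC genes they were 2981 and 3646 CPM, with 0 of 3 measured members higher. In both lists 0 members passed 2-fold, and a difference in the mix was not tested. Isg15 stood at 417 CPM in Cd4-positive and 397 CPM in Cd4-negative Cxcl10-high cells, against 67.5 and 64.7 CPM in Cxcl10-0 cells of the same classes. Rsad2 stood at 249 and 256 CPM, against 16.2 and 13.8 CPM. Within Cd4-positive cells 24 of 37 measured genes of the interferon-stimulated list passed 2-fold higher (77 of all 2530 genes, 3.04%), and within Cd4-negative cells 20 of 38 did (38 of all 2424, 1.57%).

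Most marker lists of other cell types were near the level of the Cxcl10-0 cells, and their part in the results was not tested. Sums over the marker list were 106 CPM in Cxcl10-high cells, against 108 CPM in Cxcl10-0 cells, for 7 plasmacytoid dendritic cell genes, of which Ccr9 was the 1 measured and 4 were at 0. For 8 neutrophil genes the sums were 50.4 CPM, against 38.0 CPM, with 7 at 0 and Csf3r holding all UMIs. For 7 monocyte genes they were 84.6 CPM, against 116 CPM, and 5 were at 0. For 6 cDC2 genes they were 30.9 CPM, against 77.1 CPM, with 2 at 0, and for 6 genes of mature dendritic cells 257 CPM, against 207 CPM, also with 2 at 0. T and NK cell markers were at 0 in all 58 cells, against 4.43 CPM, and B cell markers stood at 197 CPM, against 200 CPM, with 4 of 6 at 0. The gate had already removed cells with at least 3 Cd79a or at least 4 Ccr7 UMIs from both sets. The sums of B cell and mature dendritic cell markers were thus limited in advance in both sets. Of the 58 cells, 5 (8.62%) scored as likely doublets against simulated pairs, against 5.33% of Cxcl10-0 cells. With doublet-scored cells removed, 22 of 36 measured genes of the interferon-stimulated list passed 2-fold higher (41 of all 2373 genes). Another setting left out cells carrying 3 or more UMIs of plasmacytoid, neutrophil, T and NK, plasma cell or epithelial markers. There 23 of 37 passed (46 of all 2393 genes). With all cells it was 20 of 35 (36 of all 2375 genes).

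No interferon transcript was found in the Cxcl10-high cells. The 21 interferon genes looked for, of type I, II and III, had 0 UMIs over the 58 cells, which allows up to 4.88 CPM, and 1 UMI over the Cxcl10-0 cells. Gated CpG cells had 5 UMIs of them, 4 from Ifna2, and gated R848 cells had 0. At this depth a low level in the Cxcl10-high cells would not have been detectable.

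The genes of the Cxcl10-high cells were next set beside the response of gated cells to CpG and R848, in which all gated cells of a treated library are compared with all gated Control cells. With CpG 45 of 50 measured genes of the interferon-stimulated list passed 2-fold higher (4.39% of all 2415 genes, with 0.663% lower), with a median log2 ratio of 2.0. With R848 it was 44 of 51 (5.38% of all 2526 genes, with 2.26% lower), with a median of 2.05. The medians over all measured genes were 0.06 with CpG and 0.11 with R848. The 3 comparisons share Control cells, so their values stand side by side and their overlap is not a result. In some genes of the list the Control Cxcl10-high cells were near the treated cells, and in others far lower.

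Rsad2, Ifit1 and Ifit2 were near the summed level of treated gated cells, in part through 3 cells, and Ifit3 was below it. Rsad2 stood at 254 CPM in Control Cxcl10-high cells, 265 CPM in gated CpG cells, 252 CPM in gated R848 cells and 14.4 CPM in Control Cxcl10-0 cells. Ifit1 stood at 174, 143, 200.5 and 8.41 CPM in the same order, and Ifit2 at 122, 151, 156 and 5.41 CPM. For Rsad2 the ratio of the Control Cxcl10-high cells was 0.959 to gated CpG cells (0.812 to 1.13) and 1.01 to gated R848 cells (0.853 to 1.18). Ifit3 stood at 104, 173, 169.8 and 2.46 CPM, with ratios of 0.602 to gated CpG cells (0.462 to 0.771) and 0.613 to gated R848 cells (0.471 to 0.785). Cd69 stood at 71.6, 68.2, 73.2 and 15.4 CPM. Without the 3 cells highest in Cxcl10, the Control Cxcl10-high cells had 158 CPM of Rsad2, 108 CPM of Ifit1, 103 CPM of Ifit2, 43.53 CPM of Ifit3 and 41.8 CPM of Cd69, all below both treated sets.

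Isg15, Irf7 and several membrane proteins were well below the treated level. Isg15 stood at 403 CPM in Control Cxcl10-high cells, 1134 CPM in gated CpG cells, 898 CPM in gated R848 cells and 65.4 CPM in Control Cxcl10-0 cells. Irf7 stood at 202, 791, 1021 and 75.6 CPM. Ifitm3, which keeps viruses from fusing with endosomes, stood at 1969.5 CPM in Control Cxcl10-high cells, 4869.8 CPM with CpG, 5309.7 CPM with R848 and 1636 CPM in Control Cxcl10-0 cells. Bst2 (tetherin, which holds budding virus at the surface, and among the proteins stained for the sort) stood at 1334, 2635, 2933 and 1138 CPM. Ms4a4c, a membrane protein, had 4 UMIs in the Control Cxcl10-high cells (6.51 CPM), and stood at 130 CPM with CpG, 242 CPM with R848 and 3.99 CPM in Control Cxcl10-0 cells. Ly6a had 3 UMIs (4.88 CPM), and stood at 25.9, 176 and 3.28 CPM in the other 3 sets. By the ratio of CPM values, these 4 membrane proteins differed by less than 2-fold between the 2 Control sets. For Ms4a4c and Ly6a that ratio rests on 4 and 3 UMIs, too few to tell whether it lies within 2-fold. All 4 were more than 2-fold higher in gated cells of each treated library than in gated Control cells.

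**Figure D3:**
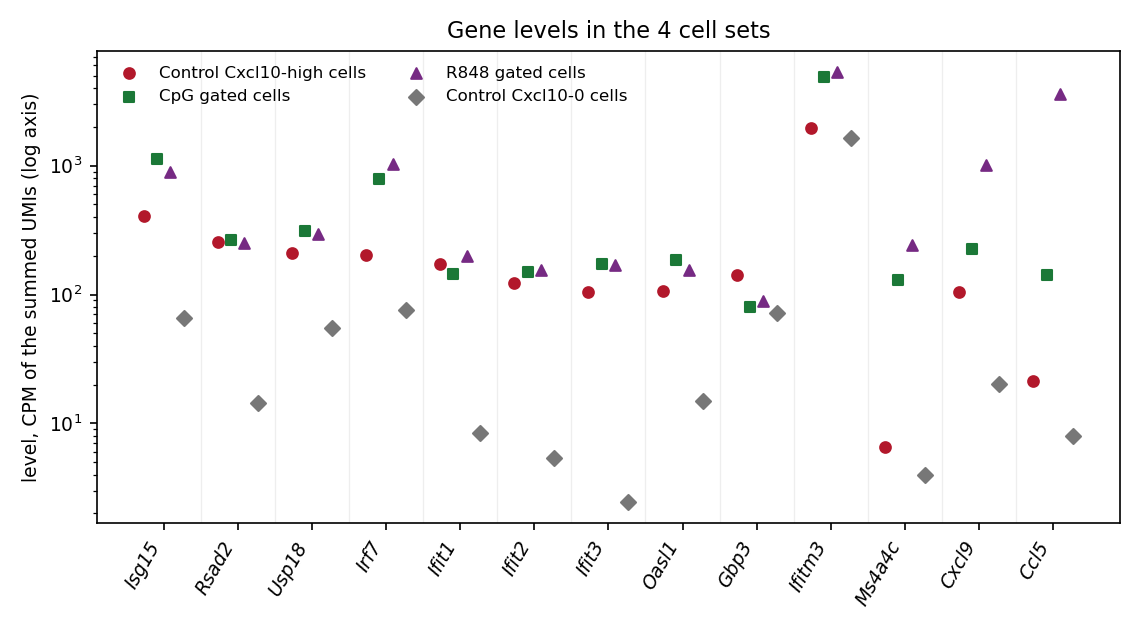
The y axis is the level of each gene in CPM of the summed UMIs of a cell set, on a log axis, for Control Cxcl10-high cells, gated CpG cells, gated R848 cells and Control Cxcl10-0 cells. Rsad2 and Ifit1 of the Control Cxcl10-high cells, at 254 and 174 CPM with all 58 cells, lie with the treated sets, Ms4a4c at 6.51 CPM lies near the Cxcl10-0 cells, and Ccl5 reaches 3601 CPM in R848 alone.

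Over the whole list the Control Cxcl10-high cells were lower than treated cells. Compared with gated CpG cells, 22 of 50 measured members passed 2-fold lower in the Control Cxcl10-high cells and 0 higher, with a median of -0.89, where 2.54% of 2484 genes were lower and 1.01% higher and the median of all genes was -0.08. Compared with gated R848 cells, 20 of 51 were at least 2-fold lower and 0 higher, with a median of -0.76, where 4.6% of 2567 genes were lower and 2.06% higher and the median of all genes was -0.11. Some genes outside the list were higher in the Control Cxcl10-high cells than in treated cells: Gbp3 was at 141 CPM in Control Cxcl10-high cells, 79.4 CPM with CpG and 89.8 CPM with R848, and Irf1 at 84.6, 55.4 and 41.3 CPM. Socs1, an inhibitor of cytokine receptor signalling, stood at 48.8, 23.9 and 35.3 CPM. Of 8 chemokines measured against gated CpG cells, 5 were at least 2-fold lower and 1 higher in the Control Cxcl10-high cells, and of 9 measured against gated R848 cells, 5 were lower and 2 higher. Cxcl9 stood at 104, 224 and 1005 CPM and Ccl5 at 21.1, 142 and 3601 CPM. Ccl17, of which 1 cell held most UMIs, was higher than in both treated sets, at 381, 150.4 and 128 CPM, and Cxcl2, a neutrophil attractant, was higher than with R848, at 53.7 and 10.6 CPM.

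The same split by Cxcl10 was made within the treated libraries. Cxcl10-high against Cxcl10-0 cells gave 17 of 52 measured list members at least 2-fold higher within CpG (1.12% of all 2420 genes, with 0 lower; list median 0.69, all genes -0.01) and 15 of 54 within R848 (1.13% of all 2481 genes, with 0.0403% lower; list median 0.74, all genes -0.01). Rsad2 stood at 459 CPM in CpG Cxcl10-high and 86.3 CPM in CpG Cxcl10-0 cells, and at 633 CPM in R848 Cxcl10-high and 132 CPM in R848 Cxcl10-0 cells. Ifit1 stood at 227 and 69.5 CPM in the 2 CpG sets and at 434 and 126 CPM in the 2 R848 sets. Cells with much Cxcl10 thus also had more of these transcripts within each treated library. Of the 36 genes at least 2-fold higher in Control, 12 were past 2-fold within CpG (33.3% of the 36 and 44.4% of the 27 past it there), and 13 within R848 (36.1% of the 36 and 46.4% of the 28 there). These overlaps come from separate cells of separate libraries. Of the 36, 35 had a log2 ratio above 0 within CpG and 33 within R848. The share of all measured genes above 0 was not counted, and their median was -0.01 in both libraries.

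**Figure D4:**
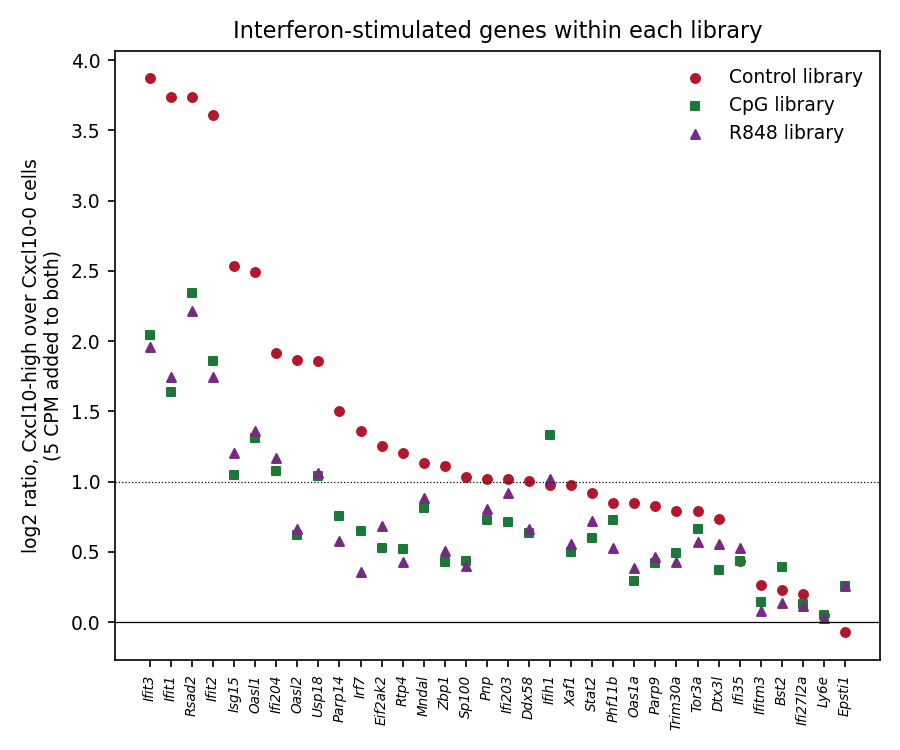
For the measured interferon-stimulated genes named on the x axis, ordered by the Control value, the y axis is the log2 ratio of Cxcl10-high over Cxcl10-0 cells within the Control, CpG and R848 libraries, with 5 CPM added to both; the dotted line marks 2-fold. Ifit3, Ifit1, Rsad2 and Ifit2 lead in Control at 3.61 to 3.87, and the CpG values of Rsad2 and Ifit3 are 2.34 and 2.04.

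The Cxcl10-0 cells of the treated libraries were themselves above the Control Cxcl10-high cells in some genes. Isg15 stood at 732 CPM in CpG Cxcl10-0 and 673 CPM in R848 Cxcl10-0 cells, beside 403 CPM in Control Cxcl10-high cells. Usp18 stood at 204 and 229 CPM, beside 211 CPM. Rsad2, at 86.3 and 132 CPM, was lower there than the 254 CPM of the Control Cxcl10-high cells. Set against treated cells chosen by the same Cxcl10 limit, 31 of 52 measured list members were at least 2-fold lower in Control than in CpG (4.04% of all 2497 genes, with 1.24% higher), and 40 of 54 lower than in R848 (6.74% of all 2583, with 3.06% higher).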

How the data were processed

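Whole-number UMI counts per gene and cell barcode were deposited as a 10x matrix for each library; the authors made them with Cell Ranger 2.0.0 on mm10, per the submitters' processing notes. The sources used here name no annotation release. The other deposited files name the barcodes and the 27998 genes. Gene coordinates were matched by Ensembl ID to GENCODE M21 (GRCm38).

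Cells were selected as stated above with Python 3.11.15, numpy 2.4.6, scipy 1.17.1 and pandas 2.3.3. UMIs were summed per cell set, scaled to CPM and compared as log2 ratios with 5 CPM added; genes with at least 50 CPM in either set were measured. With 1 library per group there was no test; levels carry exact Poisson intervals, shares exact Clopper-Pearson intervals, and ratios intervals from the conditional binomial. Counts of 0 allow up to 3 counts. Doublets were kept, and scored from 2 simulated pairs per cell and 50 neighbours (scikit-learn 1.9.0) as an alternative that removes the highest 0.8% per 1000 cells. The calculation was tested on simulated data.

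Named genes were the 14 highest and up to 8 lowest ratios at least 2-fold, with an interval leaving out 1, a UMI in at least 10% of cells of that higher set and no cell holding over 25% of its UMIs; ribosomal, mitochondrial, immunoglobulin, receptor segment, haemoglobin and unnamed genes were not eligible. List members were added, and Clec4e was named after its values were seen. The cell rule, the lists and the alternatives were chosen with earlier results of these data known. Of the list genes, 7 were not among the matrix genes. Alternatives changed the pseudocount, the expression minimum, the Cxcl10 and lysozyme limits, the scaling, the weight of cells, the set compared with, free RNA and doublets. The values of 1 list member are not reported here.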

Additional observations from a re-analysis of the deposited data

Results flagged for a closer look

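Cells with at least 3 Cxcl10 UMIs also occurred in Control cells that the comparisons do not use: of 80 kept Control cells with that count, 22 lay outside the gate. Of these, 13 had under 80 UMIs of Lyz1 and C1q per 10000, 7 had 4 or more UMIs of the cycling genes, 1 had 4 or more of Ccr7 and 1 had 3 or more of Cd79a. Among resting cells under the lysozyme limit, 10 of 2603 reached 3 Cxcl10 UMIs (0.384%, 0.184 to 0.705), at a median depth of 6151 UMIs, against 2.88% of gated cells at 10130. The 5-gene sum of Isg15, Ifit1, Ifit2, Ifit3 and Rsad2 in the 13 cells ran from 0 to 67 UMIs with a median of 2, and was at least 10 in 4 of them. The part of free RNA in these counts was not tested.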

How the results depend on the processing

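No paired analysis was possible because each group is 1 library with no replicate number to share. The count of 36 genes at least 2-fold higher in Cxcl10-high cells was 23 with 20 CPM added, 90 with no expression minimum, 21 with a minimum of 100 CPM, 21 with a Cxcl10 limit of 2 UMIs and 59 with a limit of 5. The count of 3 lower genes was 111 with no minimum, 11 with the limit of 5 and 5 with doublet-scored cells removed. The count of 20 interferon-stimulated genes was 13 with 20 CPM added and 12 with the limit of 2. The NF-kB count of 0 was 1 with 1 CPM added, with no minimum, with Cxcl10 limits of 5 UMIs or of 3 per 10000 UMIs, with the lysozyme limit at 160 per 10000, with doublet-scored cells removed, with 5% free RNA taken away, without cells carrying other markers and without cells whose barcode occurs in another library. The share of gated cells past the Cxcl10 limit was 5.52% in Control and 24.9% in R848 as any UMI after thinning to 3000, and 38.1% in CpG at 3 per 10000 UMIs. The cause of these moves was not tested. The counts of interferon-stimulated genes in treated cells moved by less than 1.5 times in the alternatives run. The 17 named genes kept their direction in all 18 settings; 42 of the 306 values moved beyond their counting interval. Cd69 stood at 1.20 without the 3 highest cells, and Plet1 was under 2-fold in at least 1 setting, at -0.84. Leaving out those 3 cells or the cells with a shared barcode was chosen after seeing the data. The 614862 UMIs of 58 cells limit what can be seen: 3 UMIs are worth 4.88 CPM.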

Other observations

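Gene groups tied to the scavenging work of phagocytes were close to even between Cxcl10-high and Cxcl10-0 cells. Of 18 measured lysosome genes 0 passed 2-fold, with a median log2 ratio of 0.07, such as the protease Ctsb at 1311 CPM in Cxcl10-high cells, against 1217 CPM in Cxcl10-0 cells. Of 7 measured genes of apoptotic cell clearance 0 passed it either, with a median of 0.04. Axl, a receptor for dying cells that interferon is known to induce, stood at 94.3 CPM in Cxcl10-high cells, against 64.1 CPM in Cxcl10-0 cells, and at 213 CPM in gated CpG and 207 CPM in gated R848 cells. Havcr2 (Tim-3) stood at 32.5 CPM in Cxcl10-high cells, against 62.9 CPM. Complement genes outside the gate, such as Cfb at 189 CPM, against 164 CPM, had a median of 0.03 over 4 measured members.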
